A study of Homo sapiens with 12 samples.

Results

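The KANK adaptor genes KANK1, KANK2, KANK3 and KANK4 were examined with the talin genes TLN1 and TLN2 and with PPFIBP1, the gene of liprin-beta-1. These 7 genes, of 18132 measured, were found by platform gene symbol; the set was chosen by the measured log2 differences of KANK4 between these groups, with its family and their talin and liprin partners. The value of a gene is that of its brightest probe set, by the mean of 12 arrays, and all 20 probe sets of the 7 genes that carry 1 gene symbol are described. The cells were A549, an established human lung adenocarcinoma line of epithelial origin, grown as monolayers on uncoated plastic. The 4 groups had 3 arrays each: untreated control monolayers, monolayers heat shocked for 2 h, monolayers wounded for 4 h, and monolayers heat shocked for 2 h and then wounded. The time from heat shock to lysis is not given for monolayers without a wound, and the labels name no separate cultures for the 3 arrays of a group, so the p-values measure the spread between these samples, which may be technical. All RNA came from whole monolayers of a single line, in which the cells at a wound edge are mixed with all others.

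Talin binds the tails of integrin beta subunits inside the cell, switches integrins to their active state and carries force from them to actin. KANK proteins bind the talin rod through a short motif near their amino terminus, the KN motif. Their coiled coil binds liprin-beta-1 and their ankyrin repeats bind the kinesin KIF21A. They form a belt around focal adhesions, where they join the cortical complex that holds microtubule ends, and KANK1 is known to restrain actin stress fibres. In migrating epithelium such adhesions assemble at the front and are taken apart behind it.

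Levels are log2 values from RMA, the authors' summary of the probes of a probe set. Means carry an SD over 3 arrays, and differences carry an SE from a linear model over all 12 arrays (limma). Calls were made over all 18132 genes at a limma p under 0.05 after Benjamini-Hochberg adjustment, and every adjusted p in the text is of that kind. KANK4 belongs here because its level was already known to move in these arrays, so its values are a description and carry no test. The other 6 genes were tested.

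The median level was between 5.30 and 5.32 on every array. One array of both treatments, replicate 2, stood apart by its interquartile range, 3.98 against 4.13 to 4.24 on the other arrays. Within that group the lowest correlation of an array with another was 0.9951 for replicate 1 and 0.994 for replicates 2 and 3. HSPA6, a stress-inducible HSP70 gene, was at 4.30 in control and 10.09 after heat shock, and EGR1, an early response gene, at 5.03 in control and 8.02 after wounding, as means over 3 arrays. All 10 epithelial marker genes stood above 4.64 in every group, the upper quartile of 19 endothelial and leukocyte marker genes in control, which serves as a rough level of dim probe sets. Of 9 alveolar type II markers 5 stood above it. In control these were ABCA3 at 7.65, SFTPC at 6.08, NAPSA at 5.92, SFTPB at 5.26 and NKX2-1 at 4.78. SFTPA1, LAMP3, SFTPD and SLC34A2 were under it in control, at 2.26, 2.72, 3.49 and 3.55. The fibroblast list averaged 3.56 to 3.78 in control and 3.71 to 3.86 after both treatments. The endothelial list ranged from 3.81 to 4.22 over the arrays, its highest value being after both treatments, and the leukocyte list from 4.03 to 4.18.

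KANK4 was dim in untreated cells, higher after either treatment and highest after both. Its level was 2.46, 2.64 and 2.66 on the control arrays, 4.49, 4.32 and 3.63 after heat shock, 4.74, 4.67 and 3.29 after wounding, and 6.19, 6.10 and 5.84 after both. Every treated array lay above every control array, the heat shocked and the wounded arrays overlapped, and the arrays of both treatments lay above all others. The group means were 2.58 ± 0.11, 4.15 ± 0.46, 4.24 ± 0.82 and 6.04 ± 0.18 (SD, n = 3). KANK4 was thus higher by 1.56 ± 0.32 on the log2 scale after heat shock (SE, 2.95-fold), by 1.65 ± 0.32 after wounding and by 3.46 ± 0.32 after both. Against single treatments, both gave 1.81 ± 0.32 above wounding alone and 1.89 ± 0.32 above heat shock alone. The difference of both treatments from the sum of the single log2 differences was 0.24 ± 0.45 on this probe set. On the other KANK4 probe set it was 0.73 ± 0.30. Additivity on the log2 scale means that the folds multiply, not that the gains in transcript add. Both probe sets were read on the same arrays, these values are a description, and whether the sum was exceeded was not tested. None of the control arrays and none of the heat shocked arrays reached 4.64, against 2 of 3 wounded arrays and 3 of 3 after both. Folds that start under that level are approximate.

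The size of the single effects differed between arrays. The sample descriptions carry a code, S2a, S2b or S3a, for replicates 1, 2 and 3 of each group, whose meaning is not stated. Among the arrays coded S2, KANK4 was higher by 1.86 after heat shock and by 2.16 after wounding, and among those coded S3 by 0.97 and 0.63. After both treatments the values were 3.60 and 3.18, so the combined difference was closer between the codes than either single one. The departure from additivity was -0.42 within S2 and 1.58 within S3, and its sign therefore differed between them. All S3 values, here and for the other genes, rest on 1 array per group and have no measure of spread. The other KANK4 probe set followed the same order, with group means of 2.72 ± 0.14 in control, 3.30 ± 0.40 with heat shock, 3.50 ± 0.40 with wounding and 4.82 ± 0.21 with both, and correlated with the main one at r = 0.97 over the 12 arrays. Its differences from control were smaller, at 0.59, 0.79 and 2.10, while its departure from additivity, given above, was larger.

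**Figure D1:**
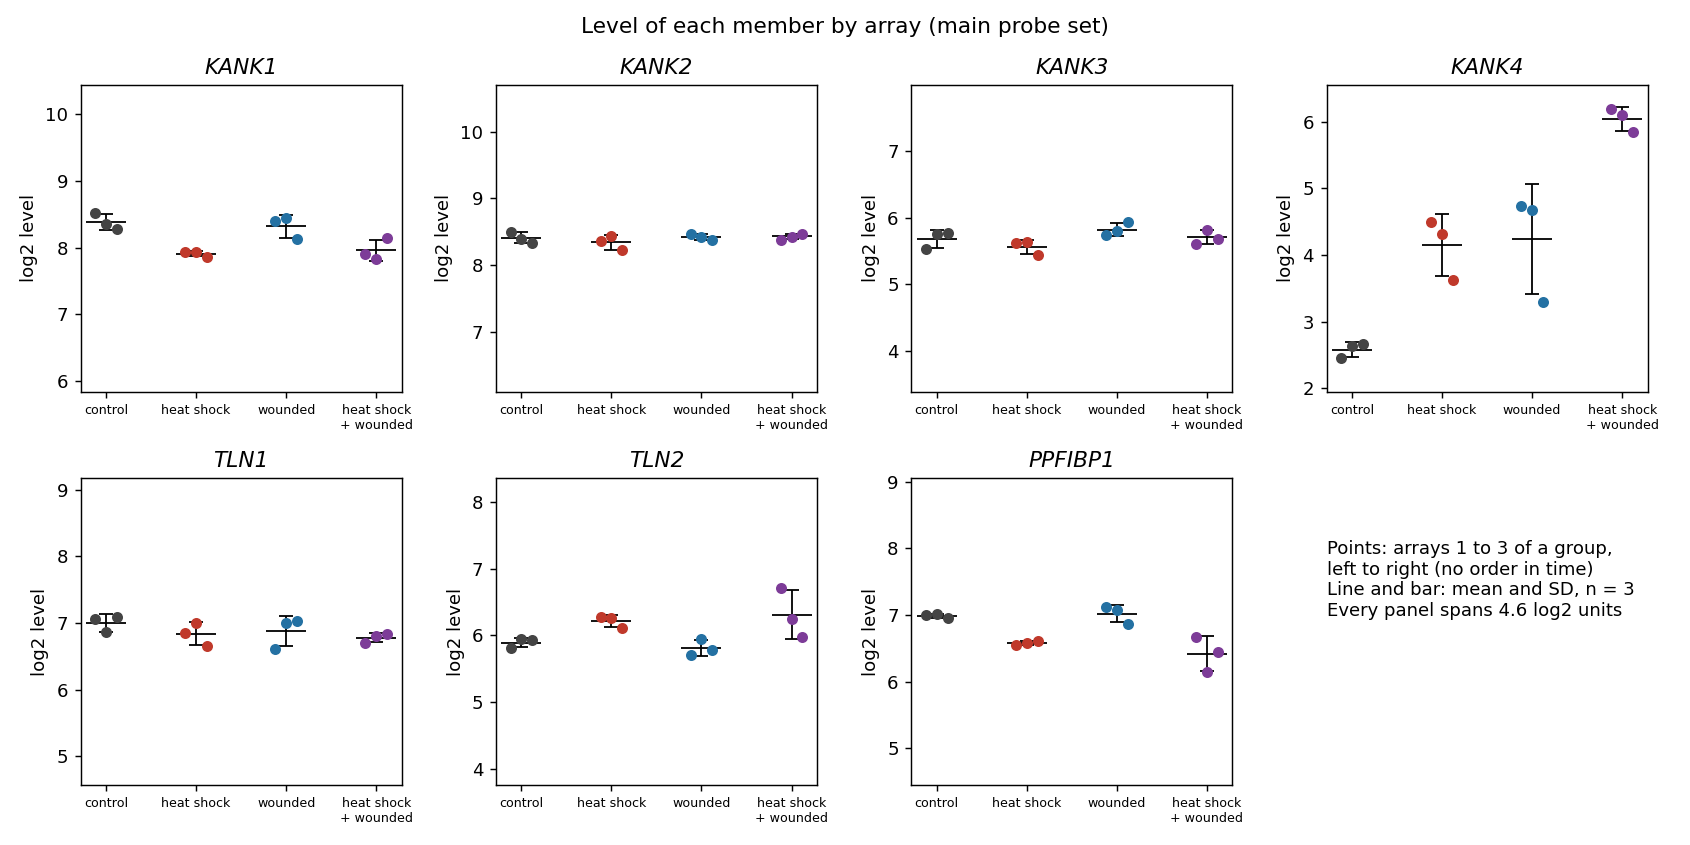
Log2 level of each of the 7 genes on each array (points), with the mean and SD of the 3 arrays of a group (line and bar), and with the same span on every vertical axis. KANK4 goes from a mean of 2.58 in control to 6.04 after both treatments, while the next widest range of group means is 0.60, for PPFIBP1.

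KANK1, the founding member of the family and a gene that restrains actin stress fibres, fell with heat shock. Its level was 8.52, 8.35 and 8.28 in control and 7.93, 7.93 and 7.86 after heat shock, and the groups did not overlap. The fall was 0.47 ± 0.10 on the log2 scale (adjusted p = 0.0089). In RNA of whole monolayers, fewer cells with a transcript and less of it per cell cannot be told apart. After both treatments KANK1 was at 7.91, 7.83 and 8.14, again below all control arrays, a fall of 0.42 ± 0.10 (adjusted p = 0.00919). Wounded arrays were at 8.40, 8.44 and 8.13 and overlapped control, with a difference of -0.06 ± 0.10 (adjusted p = 0.891, 95% interval -0.28 to 0.16). Against wounding alone, KANK1 was lower by 0.37 ± 0.10 after both (-0.37, adjusted p = 0.0299), although the lowest wounded array, at 8.13, lay just under the highest array of both treatments, at 8.14. That last call was lost in a fit without any one of wounded replicates 1 and 2 or replicates 1 and 2 of both treatments (adjusted p up to 0.111, and 0.105 without the array that stood apart), and with cyclic loess scaling (-0.31, adjusted p = 0.0544). With arrays S2a and S2b of a group averaged to 1 sample, none of the 3 KANK1 calls passed (-0.46, -0.35 and -0.27, adjusted p = 0.0715, 0.103 and 0.251). Within the S3 arrays KANK1 after both treatments differed by 0.01 from wounding alone and by -0.14 from control, against -0.55 and -0.56 within S2. A second, dimmer KANK1 probe set (mean 4.94) did not pass in any comparison and differed by -0.11 after heat shock and 0.07 after both.

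KANK2 and KANK3 passed in no comparison. KANK2, an adaptor that binds talin and maintains its activation, was at 8.50, 8.39 and 8.33 in control and between 8.22 and 8.47 on all treated arrays, and every pair of groups overlapped. Its differences from control were -0.07 ± 0.07 with heat shock, 0.01 ± 0.07 with wounding and 0.02 ± 0.07 with both, with 95% intervals within -0.22 and 0.17. KANK3, known from vascular endothelium, had group means between 5.56 and 5.82 and differed from control by -0.12 ± 0.09, 0.14 ± 0.09 and 0.02 ± 0.09. The 95% intervals, -0.32 to 0.07, -0.06 to 0.33 and -0.17 to 0.22 in the same order, set the size of change these arrays could have missed. Their other probe sets did not pass either, and over the 12 arrays those of KANK2 correlated with its main probe set at r = -0.17 and -0.47, so the probe sets shared little of the small variation seen.

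TLN1, the talin of most adherent cells, had group means of 7.0 ± 0.13 in control, 6.84 ± 0.17 with heat shock, 6.88 ± 0.23 with wounding and 6.78 ± 0.07 with both. No difference of TLN1 passed. The one from control after both, -0.22 ± 0.12 (adjusted p = 0.215), was the largest of them, with control arrays at 7.06, 6.86 and 7.09 just above arrays at 6.70, 6.80 and 6.83. The second TLN1 probe set differed there by 0.01 ± 0.10.

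TLN2, the second talin, found at high levels in heart, muscle and brain, was higher in monolayers that were heat shocked before wounding than in those that were only wounded. Its level was 5.81, 5.94 and 5.93 in control, 6.28, 6.26 and 6.11 after heat shock, 5.71, 5.95 and 5.78 after wounding and 6.71, 6.24 and 5.98 after both. All 6 heat shocked arrays, wounded or not, lay above all 6 arrays without heat shock. TLN2 passed against wounding alone, where both treatments gave a level higher by 0.50 ± 0.14 (1.41-fold, adjusted p = 0.0363). Within S2 that difference was 0.65 and within S3 it was 0.20. The differences from control, 0.32 ± 0.14 after heat shock (adjusted p = 0.182) and 0.42 ± 0.14 after both (adjusted p = 0.055), did not. The second TLN2 probe set gave 0.40 ± 0.12 after heat shock (adjusted p = 0.0653), 0.50 ± 0.12 after both against control (adjusted p = 0.013) and 0.48 ± 0.12 against wounding alone (adjusted p = 0.0237). Replicate 1 of both treatments, at 6.71, was the highest array, and without it the difference from wounding alone was 0.30. That call was also lost without replicate 2 of both treatments, the array that stood apart (0.54, adjusted p = 0.0615), or without control replicate 2, wounded replicate 1 or wounded replicate 3. It was lost as well with S2a and S2b averaged (0.42, adjusted p = 0.126) and with only the arrays of the comparison (adjusted p = 0.127).

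On its main probe set, PPFIBP1 fell with heat shock. Its product, liprin-beta-1, binds the KANK coiled coil and links KANK proteins to the cortical complex. The main probe set was at 7.0, 7.02 and 6.96 in control, 6.55, 6.58 and 6.61 after heat shock, 7.12, 7.07 and 6.87 after wounding and 6.67, 6.15 and 6.45 after both. Heat shocked arrays lay below all arrays without heat shock, and wounded arrays overlapped control. The fall was 0.41 ± 0.11 after heat shock (adjusted p = 0.0268) and 0.57 ± 0.11 after both (adjusted p = 0.00237). Both treatments stood 0.59 ± 0.11 below wounding alone (-0.59, adjusted p = 0.00362), while wounding alone differed from control by 0.02 ± 0.11 (adjusted p = 0.964, 95% interval -0.22 to 0.26). The array that stood apart was the lowest of all, at 6.15, and without it the falls were 0.41 (adjusted p = 0.00474) and 0.43 (adjusted p = 0.00502), and -0.46 against wounding alone (adjusted p = 0.00723). Within S2 and S3 the differences after both treatments were -0.60 and -0.51. The heat shock call was lost without any one of the 3 control or 3 heat shock replicates (adjusted p up to 0.0843).

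The fall of PPFIBP1 was not shared by all its probe sets. The second brightest (mean 6.40), correlated with the main one at r = 0.98, fell by 0.39 ± 0.09 after heat shock and by 0.48 ± 0.09 after both. The other 4, with means from 4.18 to 6.11, did not pass in any comparison, and the mean of all 6 did not pass after heat shock (-0.17, adjusted p = 0.0942) or after both (-0.16, adjusted p = 0.0877). The third (mean 6.11) was at 6.09, 6.06 and 5.97 in control and 6.30, 6.31 and 6.44 after wounding, groups that did not overlap, with a difference of 0.31 ± 0.10 (adjusted p = 0.181). It differed by -0.07 ± 0.10 after heat shock and 0.06 ± 0.10 after both. Which transcripts of PPFIBP1 each probe set reads was not determined here. Whether the main and the second brightest share probes was not determined either, so they may not be separate measurements.

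**Figure D2:**
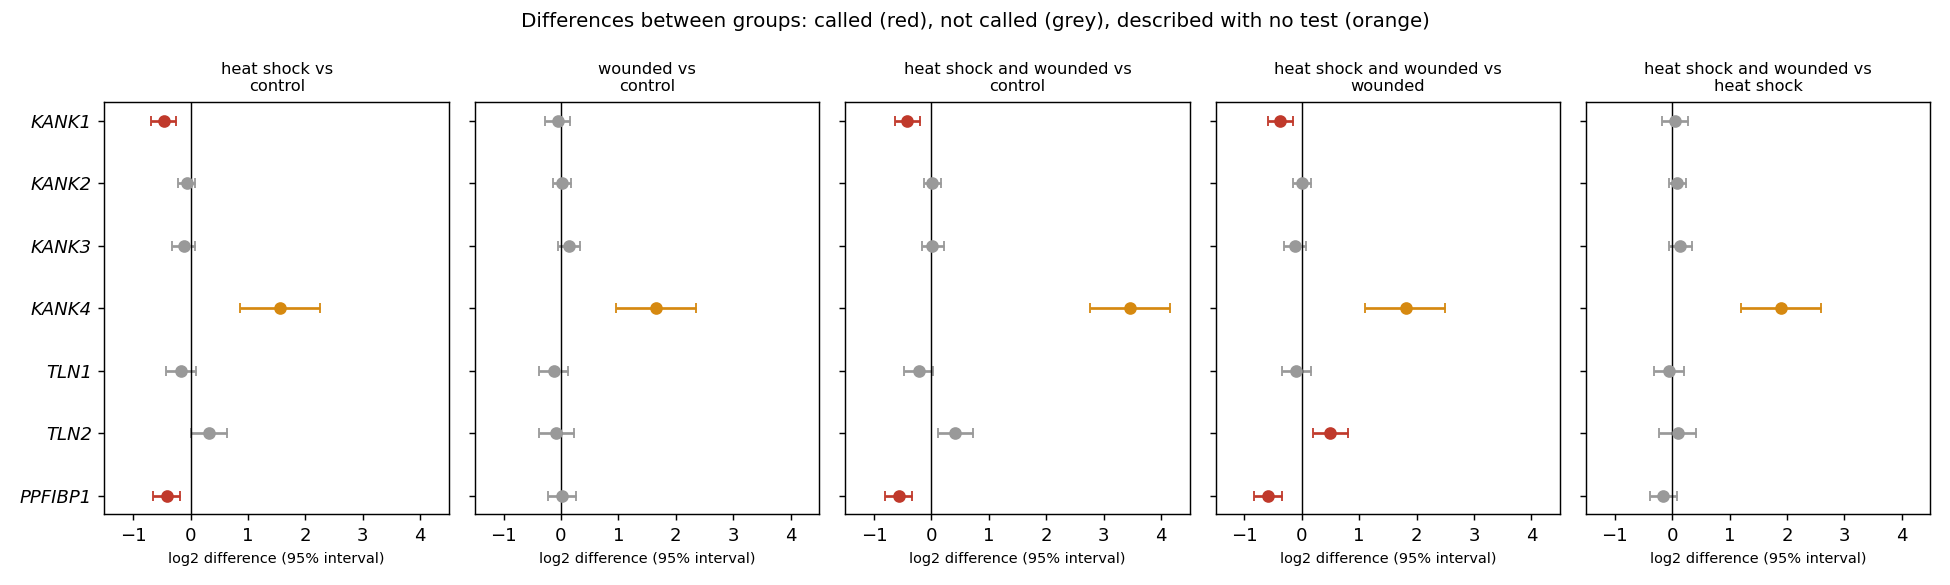
Log2 difference of each of the 7 genes in the 5 comparisons of groups, with the 95% interval of the difference. Called genes are red, uncalled genes grey, and KANK4, which has no test, orange. The interval of KANK4 is a description. KANK1 and PPFIBP1 lie below 0 in each comparison that adds heat shock. None of the 6 tested genes was called for wounding against control or for both treatments against heat shock alone.

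**Figure D3:**
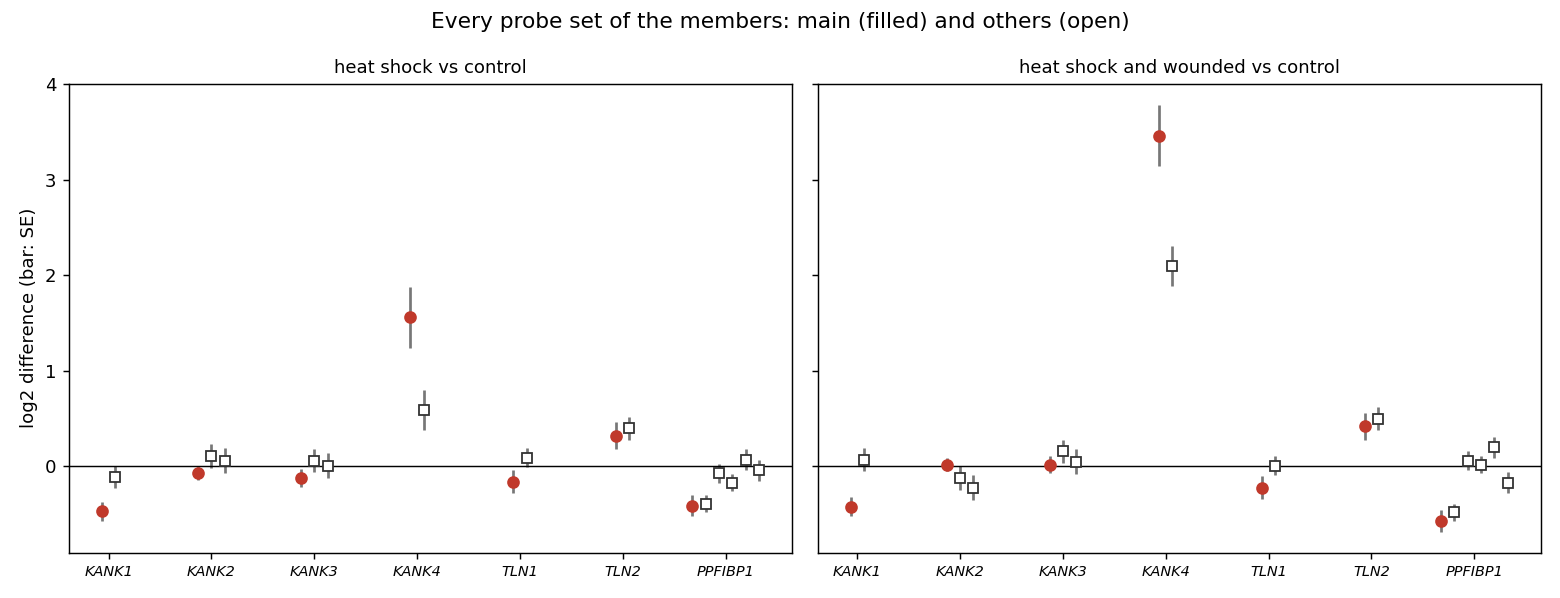
Log2 difference from control of all 20 probe sets after heat shock (left) and after both treatments (right), with the SE. The filled point is the main probe set and open squares the others, in order of the main one first. Both KANK4 and both TLN2 probe sets lie above 0, while the dimmer KANK1 probe set and 4 of the 6 PPFIBP1 probe sets lie near 0 or part from the main one.

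Across comparisons, the tested genes were called where heat shock was added. Of the 6, 2 were called after heat shock alone, both lower, against 12.9% of all genes called and 7.92% called lower. After both treatments 2 were called against control, both lower, where 23.1% of all genes were called and 14.4% were lower. Against wounding alone 3 were called, 2 lower and 1 higher, where 14.9% of all genes were called, 8.6% lower and 6.31% higher. After wounding alone limma called 0 of 6 (background 3.57%), and wounding of heat shocked cells called 0 of 6 (background 4.3%); no unadjusted p of the 6 was under 0.05 in either. For the interaction 0 of 6 were called, with 0.00552% of all genes called and no unadjusted p of the 6 under 0.05. Among all called genes the share called higher depends on the scaling: with cyclic loess it was 49.6% in place of 38.4% after heat shock, 50.1% in place of 37.6% after both, and 53.1% in place of 42.3% for both against wounding alone. The comparisons against control share the control arrays, and with 6 genes these shares say little about the group as a whole.

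The promoters of KANK4, KANK1 and PPFIBP1 are shown because their levels differed from control in opposite directions. KANK4 was high after treatment, and KANK1 and PPFIBP1 fell with heat shock on their main probe sets. The RefSeq table of build GRCh38.p14 held a window for all 7 genes, 10 windows in all with 4 for KANK1. The 250 bases before the listed start were searched on both strands for the heat shock elements GAANNTTC and TTCNNGAA, the AP-1 site TGANTCA, the TEAD site GGAATG and the CArG box of serum response factor. Matches are in capitals, each sequence runs 5′ to 3′ on the strand of its gene, and the windows are chr1:62319435-62319684 on the minus strand for KANK4, chr9:706803-707052 on the plus strand for KANK1, the only 1 of its 4 windows with a match, and chr12:27523956-27524205 on the plus strand for PPFIBP1.
KANK4: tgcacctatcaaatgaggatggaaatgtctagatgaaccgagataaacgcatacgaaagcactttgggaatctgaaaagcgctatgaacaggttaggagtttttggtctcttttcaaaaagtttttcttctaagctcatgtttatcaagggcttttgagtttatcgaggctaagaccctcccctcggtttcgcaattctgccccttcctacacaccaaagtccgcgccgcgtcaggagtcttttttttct
KANK1: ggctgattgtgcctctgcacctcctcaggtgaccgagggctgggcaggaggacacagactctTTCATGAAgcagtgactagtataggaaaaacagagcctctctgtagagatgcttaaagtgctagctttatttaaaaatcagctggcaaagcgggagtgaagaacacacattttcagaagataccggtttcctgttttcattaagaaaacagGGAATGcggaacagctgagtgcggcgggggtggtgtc
PPFIBP1: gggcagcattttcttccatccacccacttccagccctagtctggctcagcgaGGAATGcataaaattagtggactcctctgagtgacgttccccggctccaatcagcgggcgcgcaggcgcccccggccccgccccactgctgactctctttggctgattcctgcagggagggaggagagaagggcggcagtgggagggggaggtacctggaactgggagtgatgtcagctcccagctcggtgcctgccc

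The KANK4 window held none of these letters on either strand, which speaks of this window alone. The KANK1 window held TTCATGAA, a match to TTCNNGAA that starts 188 bases before the start, and GGAATG 37 bases before it. The PPFIBP1 window held GGAATG 198 bases before its start, and KANK3 held the same letters on the other strand 135 bases before its own. Of all 35116 windows of this length, 11.9% held GGAATG, 6.62% TTCNNGAA, 5.78% GAANNTTC, 6.57% TGANTCA and 1.16% a CArG box, with no overlap between the matches in these genes. These shares are per window, so they understate how often a gene with several windows, such as KANK1, would hold a match. Which of the KANK1 starts is used in these cells was not determined. The GC content was 43.6% in the KANK4 window and 63.2% in that of PPFIBP1, against a median of 58% over all windows.

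Genes of the complex that KANK proteins join at the cell cortex moved in both directions after both treatments. Of 17 measured, 5 rose and 0 fell after heat shock, 0 were called after wounding, and 3 rose and 4 fell after both. Of all genes, 4.93% were called higher and 7.92% lower after heat shock, 2.27% and 1.31% after wounding, and 8.66% and 14.4% after both, the background for each list described here. The median differences were -0.01, 0.01 and 0.02, against -0.03, -0.03 and -0.01 over all genes. KIF21A, the kinesin that KANK1 recruits and that slows microtubule growth, rose by 0.40 ± 0.10 after heat shock (adjusted p = 0.0266, a call kept in 16 of 23 alternatives) and by 0.68 ± 0.10 after both (adjusted p = 0.000479), with arrays at 9.60, 9.62 and 9.49 in control and 10.23, 10.32 and 10.21 after both. CLIP2, a microtubule plus-end protein gene, rose by 0.47 after heat shock. ERC1, which encodes the scaffold ELKS, fell by 0.38 ± 0.08 after both (adjusted p = 0.00547), and PPFIBP2, the gene of liprin-beta-2, by 0.48 ± 0.09 (adjusted p = 0.0025). PPFIBP2 was the one of these that also moved when wounding followed heat shock, where it fell by 0.44 (adjusted p = 0.019), a call lost without the array that stood apart (adjusted p = 0.0779).

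Of 11 activators of talin and integrins measured, 2 rose with heat shock, 2 with wounding and 4 with both, and 0 fell in any of these, beside 4.93%, 2.27% and 8.66% of all genes called higher. FERMT1, the gene of kindlin-1, which binds integrin tails beside talin, was at 9.22, 9.17 and 9.17 in control, 9.04, 9.08 and 9.05 after heat shock, 10.13, 10.10 and 9.68 after wounding and 9.82, 10.12 and 10.18 after both. The arrays fell into those with wounding and those without. FERMT1 rose by 0.78 ± 0.12 after wounding (adjusted p = 0.00236) and by 0.99 ± 0.12 when wounding followed heat shock (adjusted p = 0.000415), and differed by -0.13 ± 0.12 after heat shock (adjusted p = 0.556). FERMT2, which encodes kindlin-2, rose by 0.45 after heat shock (adjusted p = 0.00533), by 0.42 after wounding (adjusted p = 0.0178, a call kept in 17 of 23 alternatives, adjusted p up to 0.205) and by 0.83 ± 0.09 after both (adjusted p = 2.68e-05). RAPGEF2 and RAPGEF1, exchange factors that switch on the talin activator RAP1, rose by 0.56 and 0.49 after both. Of 8 genes measured that oppose talin or RAP1, 1 fell after heat shock (2 with replicate 2 of both treatments left out), 0 were called after wounding and 2 fell after both. SIPA1L2, which encodes a RAP GTPase-activating protein, fell by 1.04 ± 0.18 after both (adjusted p = 0.00117), and by 0.80 without the array that stood apart. DOK1, whose product competes with talin for integrin tails, fell by 0.36 after heat shock (adjusted p = 0.0121) and by 0.33 after both (adjusted p = 0.0102). These DOK1 calls were kept in 20 and 21 of 23 alternatives, with adjusted p up to 0.085 and 0.0652. The call after both was lost under a change of scaling (adjusted p up to 0.0507).

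Of 7 integrin beta subunit genes measured, 1 rose after heat shock and 0 were called after wounding. After both, 1 rose (0 without the array that stood apart). Of all genes, 12.9%, 3.57% and 23.1% were called in these comparisons. ITGB8 rose by 1.19 ± 0.18 after heat shock (adjusted p = 0.00127), from 3.37, 3.29 and 3.36 to 4.65, 4.72 and 4.20. After both treatments it was at 4.12, 3.37 and 3.33, lower by 0.91 than after heat shock alone (-0.91, adjusted p = 0.0131). Its control level was under 4.64, and the call against heat shock was lost without the array that stood apart (adjusted p = 0.0575). ITGB3, the subunit gene called after both treatments (adjusted p = 0.0258, and 0.0949 without that array), was at 3.58 to 4.26 over the 12 arrays, under 4.64 on every one, so no size of change is given for it.

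Among 33 focal adhesion adaptors and kinases, 4 rose and 1 fell after heat shock, 3 rose after wounding, and 6 rose and 3 fell after both (5 and 1 without the array that stood apart). The medians of the list were 0.03, 0.04 and 0.03. PXN, the gene of the scaffold paxillin, was at 10.29, 10.26 and 10.35 in control, 10.92, 10.87 and 10.89 after heat shock, 10.87, 10.95 and 10.64 after wounding and 11.33, 11.54 and 11.45 after both. Both single treatments lay between control and the combination. PXN rose by 0.59 ± 0.08, 0.52 ± 0.08 and 1.14 ± 0.08 (adjusted p = 0.000623, 0.00356 and 1.33e-06). In the same 3 comparisons TNS1, which encodes the actin and integrin binding protein tensin 1, rose by 0.41, 0.85 and 1.33 (adjusted p = 0.0125, 0.000313 and 1.1e-06), and TES, the gene of testin, a zyxin partner, by 0.96, 0.57 and 1.17 (adjusted p = 1.21e-05, 0.00146 and 8.52e-07). BCAR1, which encodes the Cas adaptor of integrin signalling, rose by 0.40 after heat shock and by 0.62 after both (adjusted p = 0.00296 and 4.48e-05), with 0.05 after wounding (adjusted p = 0.858). The 3 that fell after both were TNS3, TNS2 and TGFB1I1, by 0.61, 0.39 and 0.37 (adjusted p = 9.21e-05, 0.0258 and 0.0453). TNS3, another tensin gene, had a control mean of 11.35, against 5.32 for TNS1. It also fell by 0.43 after heat shock (adjusted p = 0.00305).

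Of 9 other measured binding partners of KANK proteins, 2 fell after heat shock, 0 were called after wounding and 2 fell after both. They were YWHAH, a 14-3-3 gene, by 0.32 and 0.36, and ARFGEF1, whose product BIG1 binds KANK1, by 0.32 and 0.32.

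Over the 85 measured genes of these lists, each counted once, 18.8% were called with heat shock, 5.88% with wounding and 29.4% with both, beside 12.9%, 3.57% and 23.1% of all genes. The lists were drawn up with earlier results of these data known, so these shares are a description.

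**Figure D4:**
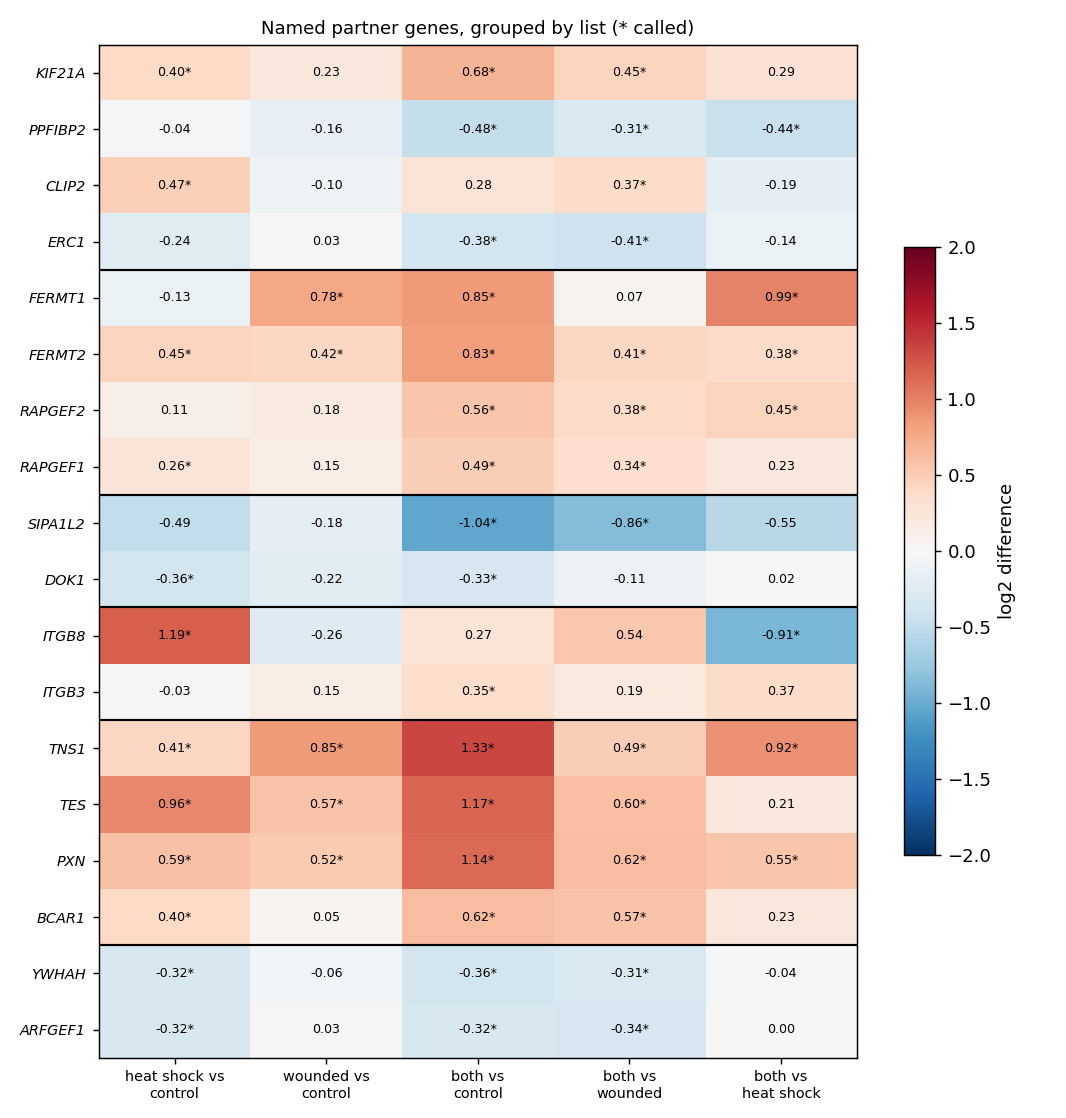
Log2 difference of the 18 named partner genes in the 5 comparisons of groups, with an asterisk where limma called the gene; lines separate, from the top, the cortical complex, activators, opposing genes, integrin beta subunits, adhesion adaptors and other KANK partners. PXN, TNS1 and FERMT2 are called higher in all 5 comparisons, with their largest differences after both treatments against control; of the FERMT2 calls, that after wounding was kept in 17 of 23 alternatives and that for both against heat shock in 16 of 23, and of the TNS1 calls that after heat shock in 19 of 23.

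The genes whose pattern over the 12 arrays was most like that of KANK4, among 9066 with a mean above the median gene, were HAS3 (Pearson r = 0.985), ELL2 (0.976), NT5E (0.975), FERMT2 (0.974) and PRKAB2 (0.972). HAS3, a hyaluronan synthase gene, had group means of 8.71 in control, 9.16 with heat shock, 9.14 with wounding and 9.61 with both. ELL2, an elongation factor gene, had 7.83, 8.82, 8.83 and 9.64. NT5E, which encodes the ecto-nucleotidase CD73, had 7.95, 8.68, 8.67 and 9.20. These genes were picked for that likeness, and as with KANK4 the single treatments were close to each other and the combination was highest. These correlations rest on 4 groups of 3 arrays and are a description. The genes most like KANK1 were ERLEC1 (r = 0.964), ERCC8 (0.954) and FAM76B (0.954), and those most like PPFIBP1 were ULK2 (0.969), DCAF6 (0.964) and PPCS (0.956). For TLN2 they were ZFP30, ARID3A and ZNF473 (0.887 to 0.884), for KANK2 COL6A1, SFT2D1 and CTBS (0.887 to 0.874), for KANK3 RPL28, CHD2 and BAZ1A (0.918 to 0.846), and for TLN1 VAV1, GRPEL2 and MDN1 (0.816 to 0.782).

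Among the 7 genes themselves, KANK1 and PPFIBP1 followed each other most closely over the 12 arrays (r = 0.85). KANK1 and TLN2 ran in opposite directions (r = -0.74), as did KANK4 and PPFIBP1 (r = -0.62). KANK2 and KANK3 stood between -0.34 and 0.48 with every other gene of the set. Each probe set has its own brightness, so the level of one gene says nothing of its abundance against another, and the mark of 4.64 is only a rough guide to dim probe sets.

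Podocytes, the kidney cells in which KANK genes are also studied, were among the marker lists. Their 3 measured markers averaged 6.29 to 6.38 on control arrays and 6.68 to 6.94 after both treatments, through PODXL, at 7.40 and 8.75, and SYNPO, at 7.83 and 8.10, while the defining slit diaphragm gene NPHS1 was at 3.80 and 3.56. The part of these markers in the values of KANK4 was not tested.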

How the data were processed

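RNA of 12 A549 monolayer samples, 100 ng of total RNA per array, was measured on Affymetrix PrimeView arrays. The log2 probe set levels were deposited by the authors, who used RMA and Affymetrix Expression Console, as the submitters' processing notes list, in versions not given in the sources used here. RMA gives the arrays similar distributions and can compress differences of dim probe sets; the number of arrays limits the precision. Of 49293 probe sets, 1 with a missing value was left out, and 44987 with 1 platform symbol were used, the brightest by mean for each gene. Limma 3.58.1 in R 4.3.3 fitted a mean for each of the 4 groups, taken from the labels (8 residual degrees of freedom, no block, Benjamini-Hochberg adjustment over 18132 genes). Differences are of means of log2 values, and a fold is 2 to that power. The text names up to 4 called genes of each list, by size of change, and the 5 (KANK4) or 3 genes most like each member by Pearson's r over the arrays. The focal adhesion adaptors that fell after both treatments are named besides. The members, lists and tests were chosen with earlier results of these data known. Some genes of the lists were not analysed here, and one list is not reported here. Alternatives were other scalings, probe sets, filters, sample sets and blocks, and leaving out each array.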

Additional observations from a re-analysis of the deposited data

How the results depend on the processing

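Counts of called genes over the whole table, and the calls of the 6 tested genes, were recomputed under each alternative. Some alternatives have fewer samples, and the cause of a change was not tested in any of them. With S2a and S2b averaged, which leaves 2 samples a group, 919 genes were called after heat shock, 224 after wounding, 2475 after both, 1104 for both against wounding, 333 for both against heat shock and 0 for the interaction. KANK1 was then at -0.46, -0.35 and -0.27 after heat shock, after both and against wounding, and TLN2 at 0.42 against wounding, all without a call. With only the arrays of a comparison, 1663 genes were called for both against wounding and 300 against heat shock. TLN2 then passed after heat shock (0.32), and KANK1 (-0.37) and TLN2 (0.50) did not pass against wounding. Among S2 arrays alone, 386 genes were called for both against heat shock and 0 for the interaction, PPFIBP1 did not pass after heat shock (-0.45) and TLN2 passed after both (0.60). With trend and robust settings in limma the interaction had 2 genes, and with the mean of all probe sets it had 0.

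With the mean of all probe sets, KANK1 was at -0.29, -0.18 and -0.14 after heat shock, after both and against wounding, and PPFIBP1 at -0.17 and -0.16 after heat shock and after both, all without a call. KANK4 was then 1.07 above control after heat shock and 2.78 after both, and TLN2 passed at 0.36 and 0.46. TLN2 also passed after both with repeated quantile normalization (0.46), cyclic loess (0.47), genes above the 25th percentile (0.42), the description code as a block (0.42), trend and robust settings (0.42) and its second probe set (0.50). With cyclic loess, KANK1 against wounding was -0.31 without a call. The second KANK1 probe set gave -0.11 after heat shock and had the opposite sign after both (0.07) and against wounding (0.08). The second KANK4 probe set gave 0.59, 0.79 and 2.10. The 4 PPFIBP1 probe sets without a call gave -0.07, 0.07, -0.17 and -0.04 after heat shock, 0.06, 0.20, 0.02 and -0.17 after both, and -0.24, 0.28, -0.11 and -0.34 against wounding.

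Leaving out 1 array at a time gave 1438 to 2594 called genes after heat shock, 306 to 722 after wounding, 3088 to 4400 after both, 1649 to 2936 for both against wounding, 498 to 790 against heat shock and 1 to 2 for the interaction. The values ranged from 0.28 to 0.38 (TLN2) and -0.43 to -0.40 (PPFIBP1) after heat shock, from 0.22 to 0.58 (TLN2) after both, and from -0.46 to -0.30 (KANK1) and 0.30 to 0.66 (TLN2) against wounding. TLN2 passed after heat shock without replicate 1 of both treatments (adjusted p = 0.0392) and after both without replicate 3 of that group (adjusted p = 0.00613).

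Deviations of same-numbered arrays correlated at -0.187 to 0.234 (median 0.057, 6 of 18 pairs over 0.1) and those of differently numbered ones at -0.194 to 0.243 (median -0.0255, 7 of 36 over 0.1). As not every same-numbered pair was over 0.1, the numbers were not taken as pairs. That cut is arbitrary and the check did not compare the codes, so it cannot show that arrays sharing a number or code were independent. Differently numbered pairs over 0.1 included some within code S2, such as heat shock replicate 2 with wounded replicate 1 (0.154). Others had different codes, such as control replicate 3 with replicate 2 of both treatments (0.243). With the replicate block 2370, 639, 4230, 2728, 817 and 1 genes were called in the 6 comparisons, and no call of the 6 tested genes changed; KANK1 against wounding was -0.37 (adjusted p = 0.0437). With 3 arrays a group, small differences of KANK2, KANK3 and TLN1 were not resolvable.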
